A study of Rattus norvegicus with 18 samples.

Results

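The genes described here are 7 genes of microglia and of the complement system in rat hippocampus: C1qa, C1qb, Csf1r, Tyrobp, Aif1, Ctss and Cd74. Every probe set that the array annotation gives one of these symbols was taken, which yielded 8 probe sets of 15923 on the array, 2 of them for Aif1 and 1 for each other gene. Of these, 7 probe sets, 1 per gene, were bright enough to be tested among 9520. The probe sets were 1376652_at (C1qa), 1370215_at (C1qb), 1388784_at (Csf1r), 1374730_at (Tyrobp), 1369489_at and 1368558_s_at (Aif1), 1387005_at (Ctss) and 1367679_at (Cd74). The second Aif1 probe set lay under the filter on low signal and is given as values only. The whole array named 10412 genes.

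Total RNA of hippocampus was hybridised to 18 Affymetrix arrays, 1 per sample, in a series on learning in rats with fetal alcohol exposure. The labels give 3 diets (alcohol, isocaloric and control) and 2 training states, a procedure abbreviated as CFC or naive. Trained rats gave 4 arrays on alcohol, 4 on the isocaloric diet and 2 on the control diet, and naive rats gave 4, 2 and 2. An isocaloric diet matches calories, so that alcohol against isocaloric asks about alcohol itself and isocaloric against control about the feeding regime. Strain, age, sex, the timing of the diet and the delay between training and tissue collection are not given in the sources used here, nor are litters, and the replicates are not stated to be separate animals. What the p-values measure is therefore the variation among these arrays, part of which may be technical.

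Microglia are the resident macrophages of the brain and depend on signalling through the CSF1 receptor for survival. They make the 3 chains of C1q, the recognition molecule that starts the classical complement cascade and that tags synapses for removal during development. The other genes described here cover further microglial functions: Tyrobp passes signals from surface receptors, Aif1 (Iba1) is an actin-bundling protein used to stain microglia, Ctss is a lysosomal protease and Cd74 is the invariant chain of class II antigen presentation. Part of this equipment is shared with other macrophages, and Cd74 with antigen-presenting cells of the blood and meninges. In whole tissue, fewer microglia and less RNA per microglial cell cannot be told apart.

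Genes of the labelled tissue were bright on all arrays. Signal of the astrocyte gene Gfap ran from 1796 to 2669, of the myelin gene Mbp from 3746 to 6773 and of the synaptic gene Snap25 from 2690 to 4829. Microglial genes outside the 7 were also measured, with Cx3cr1 at 41.1 to 101 and P2ry12 at 77.2 to 163. Mrc1 and Cd163, which mark macrophages of vessels and meninges, were not analysed here. The 6 measured markers of such macrophages all lay under the filter, and their summed signal ranged from 86.2 to 171, with 0 tested. Transthyretin (Ttr), a choroid plexus gene, ran from 62.5 to 7331 and was high on some arrays of each diet. The correlation between 2 arrays of a group was 0.952 to 0.985. For 2 control-diet arrays, naive replicate 1 and trained replicate 2, the submitters' processing notes name MAS5, and results that involve the control diet are given with and without them where that matters.

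C1qa and C1qb had the smallest p-values of the 7 genes in alcohol against isocaloric feeding, so the windows around their gene starts are shown first. RefSeq (build GRCr8) places both on the minus strand of chromosome 5, C1qa at chr5:154419884-154420183 and C1qb at chr5:154407778-154408077, each window holding 250 bases before and 50 after the start. Capitals mark GAGGAA on either strand (TTCCTC when read on the other), a core bound by PU.1, the transcription factor that defines the myeloid lineage.
C1qa: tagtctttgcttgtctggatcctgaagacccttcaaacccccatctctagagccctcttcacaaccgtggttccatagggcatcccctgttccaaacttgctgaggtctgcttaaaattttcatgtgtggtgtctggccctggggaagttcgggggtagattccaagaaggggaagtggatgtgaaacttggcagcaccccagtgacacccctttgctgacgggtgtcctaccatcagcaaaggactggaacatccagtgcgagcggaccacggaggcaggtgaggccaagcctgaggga
C1qb: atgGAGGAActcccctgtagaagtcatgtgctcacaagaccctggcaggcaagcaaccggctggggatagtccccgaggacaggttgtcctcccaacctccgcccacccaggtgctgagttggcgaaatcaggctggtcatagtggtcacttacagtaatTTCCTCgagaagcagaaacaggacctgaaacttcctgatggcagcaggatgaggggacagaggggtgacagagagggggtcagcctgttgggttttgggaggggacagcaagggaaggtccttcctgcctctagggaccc
The C1qb window held 2 matches and the C1qa window 0. No other motif was searched. Among 33469 windows of the same length, 9239 (27.6%) held at least 1 match. Of the 5 members with an entry in the promoter table, C1qb, Csf1r, Ctss and Cd74 held the motif, and Tyrobp and Aif1 had no entry. A match describes the letters and is no evidence of binding, and its absence says only that these letters are not in this window.

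C1qa was lower in the isocaloric than in the control diet, the 1 difference among the 7 genes that passed the test in any of the 12 comparisons. Its signal on the alcohol trained arrays was 355, 334, 335 and 368, and on the isocaloric trained arrays 288, 305, 264 and 264. On the alcohol naive arrays it was 291, 302.5, 309 and 289, and on the isocaloric naive arrays 234 and 236. The control arrays read 298 and 357 (trained) and 324.5 and 537 (naive). The isocaloric arrays were the lowest of each training state apart from 1 trained overlap with control, and the single reading of 537, from control naive replicate 2, stood far above every other array. As log2(signal + 6.06), the group means were 8.73 ± 0.51 (SD, n = 2) in control naive, 8.47 ± 0.066 (n = 4) in alcohol trained, 8.38 ± 0.18 (n = 2) in control trained, 8.25 ± 0.045 (n = 4) in alcohol naive, 8.16 ± 0.10 (n = 4) in isocaloric trained and 7.91 ± 0.0084 (n = 2) in isocaloric naive. Neighbours in this order overlapped, except that isocaloric naive lay wholly under isocaloric trained.

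C1qb spanned a similar range. Its signal was 206, 156.5, 227 and 204 on the alcohol trained and 164, 161, 190.1 and 182 on the isocaloric trained arrays. On the alcohol naive arrays it was 150.4, 205.5, 194 and 157, and on the isocaloric naive arrays 111 and 120.4. Control trained arrays read 154 and 131, and control naive arrays 171 and 242.5. Trained alcohol and isocaloric arrays overlapped, whereas both isocaloric naive arrays were below all 16 others. The log2 means fell in the order control naive 7.71 ± 0.35 (SD, n = 2), alcohol trained 7.66 ± 0.22 (n = 4), alcohol naive 7.50 ± 0.21 (n = 4), isocaloric trained 7.49 ± 0.11 (n = 4), control trained 7.21 ± 0.15 (n = 2) and isocaloric naive 6.93 ± 0.076 (n = 2). In that order isocaloric trained lay above control trained without overlap, as did control trained above isocaloric naive, and the other neighbours overlapped.

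C1qc, the third chain, is not among the 7 but was on a list of complement genes chosen for comparison. Its log2 means were 7.20 ± 0.26 (SD, n = 4) in alcohol trained, 7.15 ± 0.15 (n = 4) in alcohol naive, 6.92 ± 0.12 (n = 4) in isocaloric trained and 6.73 ± 0.31 (n = 2) in isocaloric naive. The control means were 6.86 in both trained arrays and 7.25 ± 0.16 (n = 2) in the naive ones. The lowest mean of all 3 chains was thus in isocaloric naive, and the highest in control naive.

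**Figure D1:**
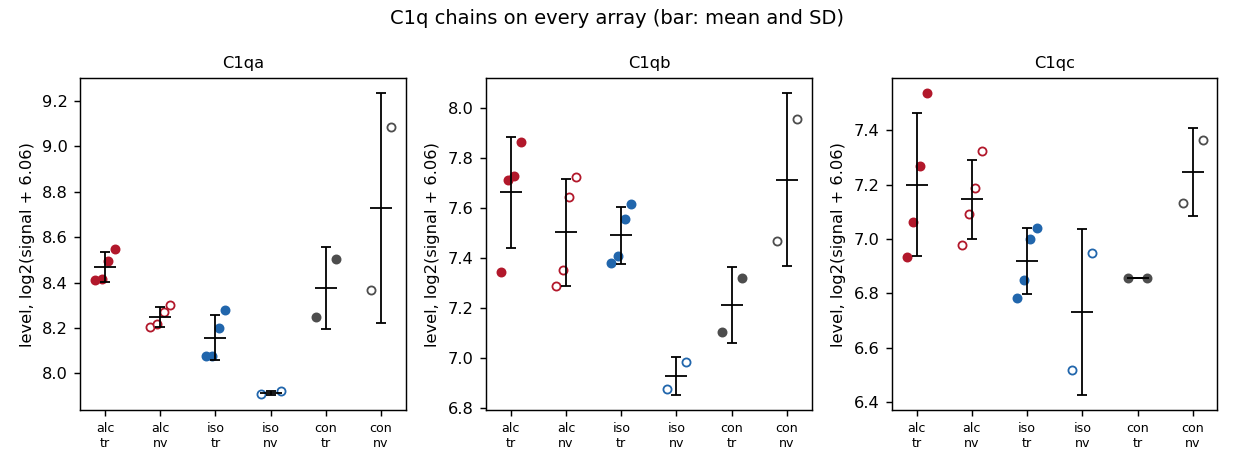
Level of the 3 C1q chains, as log2(signal + 6.06), on each of the 18 arrays (dots; filled, trained; open, naive; alc alcohol, iso isocaloric, con control), with the group mean and SD as bars. Isocaloric naive has the lowest mean in each panel (7.91, 6.93 and 6.73), and the highest C1qa and C1qb dots belong to 1 control naive array.

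Csf1r, the receptor on which microglial survival depends, was the steadiest of the genes. Its level ranged from 7.76 to 8.13 over all 18 arrays, both extremes being isocaloric trained arrays. The 6 group means lay between 7.95 and 8.04, and every group overlapped its neighbours. Its within-group SD of 0.12 was at percentile 18.1 of all tested probe sets, whose median SD was 0.165.

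Tyrobp, the adaptor that couples TREM2 and other receptors to kinase signalling, was dim. Its signal was 53.8, 38.6, 63.6 and 84.8 in alcohol trained, 60.7, 72.9, 57.3 and 60.5 in isocaloric trained, and 70.5, 41.6, 63.8 and 50.1 in alcohol naive arrays. In isocaloric naive arrays it was 58.0 and 67.4, in control trained 74.0 and 62.7, and in control naive 61.0 and 108. The alcohol arrays held the lowest values and spread widely, and the top value was again control naive replicate 2. Group means ran from 5.94 ± 0.31 (SD, n = 4) in alcohol naive to 6.45 ± 0.54 (n = 2) in control naive, all overlapping their neighbours.

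Aif1 gave a level of 6.12 to 6.86 on the tested probe set (1369489_at) and 5.10 to 6.13 on the dimmer one. On the tested probe set the group means were between 6.33 ± 0.19 (SD, n = 4) in isocaloric trained and 6.66 ± 0.18 (n = 2) in control naive. On the dimmer probe set they were between 5.44 ± 0.29 (n = 4) in alcohol trained and 5.74 ± 0.56 (n = 2) in control naive. All neighbours in either order overlapped.

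Ctss, cathepsin S, had signals of 948, 790, 886 and 743 in alcohol trained and 903, 915, 816 and 743 in isocaloric trained arrays. In alcohol naive arrays they were 897, 792, 735 and 763, and in isocaloric naive arrays 732 and 779. Control trained arrays read 959 and 908. The 2 control naive arrays were the extremes of the whole set, at 705 and 1281. Group means ran from 9.57 ± 0.063 (SD, n = 2) in isocaloric naive to 9.90 ± 0.61 (n = 2) in control naive, without a gap between neighbours.

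Cd74, which chaperones class II molecules, varied most. Its level was 6.69, 7.10, 7.67 and 6.70 in alcohol trained, 7.24, 7.17, 7.50 and 7.37 in isocaloric trained, and 7.31, 7.07, 8.06 and 6.41 in alcohol naive arrays. On the isocaloric naive arrays it was 6.76 and 7.10, on the control trained arrays 7.76 and 7.42, and on the control naive arrays 7.21 and 7.16. Both extremes of the 18 arrays were thus in 1 group, alcohol naive, with an SD of 0.68 (n = 4). Its within-group SD of 0.43 was at percentile 98.3 of the tested probe sets, against 94.7 for Tyrobp, 84.3 for Aif1, 74.9 for Ctss, 68.6 for C1qb and 51.9 for C1qa. Group means lay between 6.93 ± 0.24 (n = 2) in isocaloric naive and 7.59 ± 0.24 (n = 2) in control trained.

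**Figure D2:**
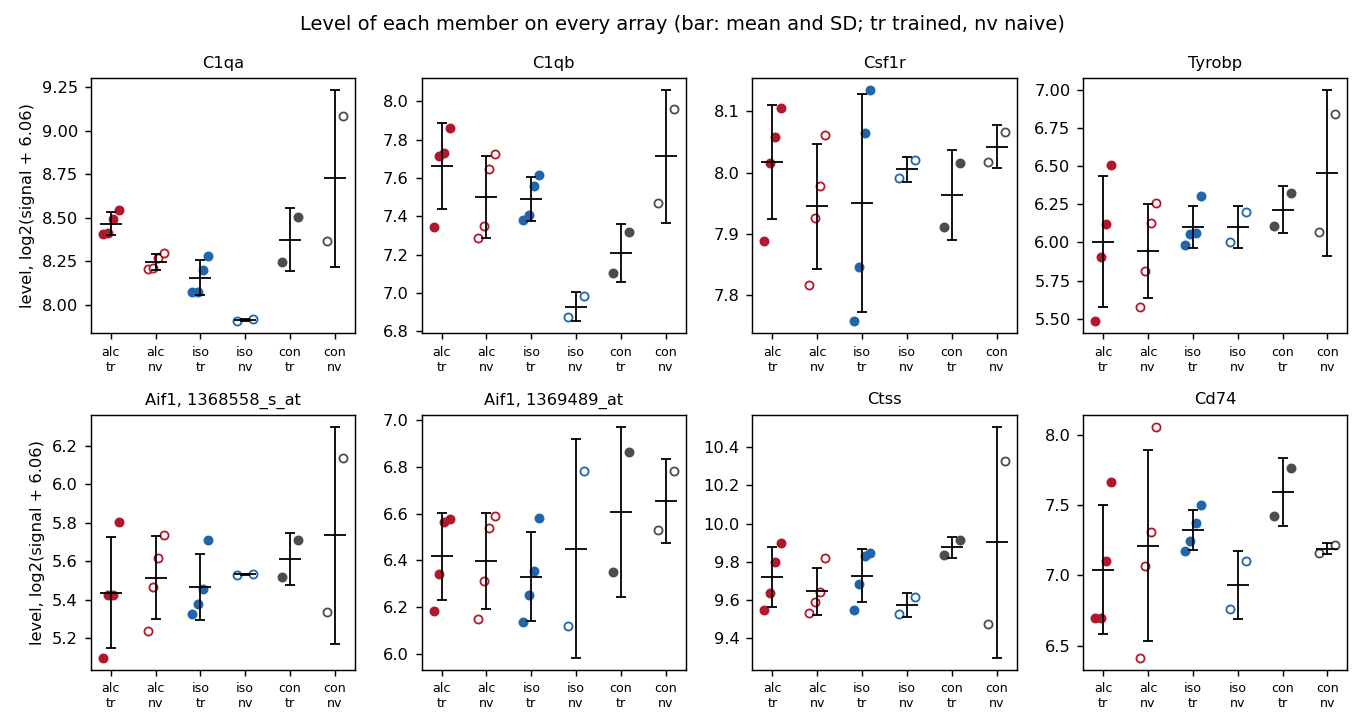
Level of each of the 8 probe sets, as log2(signal + 6.06), on each array (dots; filled, trained; open, naive) with the group mean and SD (bars); each panel has its own vertical scale. Control naive replicate 2 is the highest dot for C1qa, C1qb, Tyrobp and Ctss, and Csf1r spans only 7.76 to 8.13.

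Single arrays set several of these extremes. Control naive replicate 2 held the highest value of 4 of the 7 genes, C1qa, C1qb, Tyrobp and Ctss. Isocaloric naive replicate 1 held the lowest value of 3 genes, C1qa, C1qb and Aif1. With each gene scaled to mean 0 over the arrays, the average over the 7 was 1.56 SD on control naive replicate 2 and -0.98 SD on isocaloric naive replicate 1, with 0.63 SD next highest, on control trained replicate 1. The summed signal of 33 tested genes on a wider list of microglial and CSF1 receptor genes, with 16 dimmer ones, was 15860 to 19790 on the control naive arrays and 14490 to 14830 on the isocaloric naive arrays. It was 14580 to 18560 in alcohol naive, 16550 to 19260 in alcohol trained, 15220 to 16430 in isocaloric trained and 14810 to 15980 in control trained arrays. Alcohol naive and control trained overlapped isocaloric naive. Astrocyte markers, 15 in all, had a summed signal of 18090 to 21560 in control naive against 15470 to 16220 in isocaloric naive arrays, with 17250 to 18510 in control trained and 16430 to 18540 in isocaloric trained arrays, and their part in the C1q differences was not tested.

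Once the group means were removed, the 7 genes did not move together as a block. Of 21 pairs, 14 had a positive correlation over the 18 arrays, r ran from -0.33 to 0.73 with a median of 0.12, and 0 pairs had an adjusted p under 0.05 by Pearson or Spearman. The highest r was between C1qa and Ctss (Pearson r = 0.73, permutation p = 0.383; Spearman rho = 0.41, permutation p = 0.285; adjusted p = 0.897 and 0.917). Without the 2 arrays farthest from the median, both control naive, it was 0.085, so this relation rests on those arrays. For C1qa and C1qb r was 0.39 (permutation p = 0.663; rho = 0.16, permutation p = 0.723; adjusted p = 0.897 and 0.917), and -0.12 without the same arrays. For C1qa and Tyrobp r was 0.53 (permutation p = 0.165; rho = 0.48, permutation p = 0.141; adjusted p = 0.897 and 0.917), and 0.24 without them.

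The 5 genes outside the set whose pattern over the 18 arrays was most like the average of the 7 were picked as the highest correlations of all tested probe sets, so they get no test. They were Ppp1ca, a catalytic subunit of protein phosphatase 1 (r = 0.87), Ubl5 (0.86), the kinase Nek7 (0.85), cysteine dioxygenase Cdo1 (0.84) and Cops2, a subunit of the COP9 signalosome (0.84). Without the 2 arrays farthest from the median these fell to between 0.44 and 0.68.

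Alcohol was set against isocaloric feeding by averaging the difference in trained and in naive arrays. The 3 C1q chains had positive differences of 0.32 to 0.37, and 0 of them passed the test over all probe sets. C1qa differed by 0.32 on the log2 scale (SE 0.087, 95% interval 0.14 to 0.50, adjusted p = 0.0515), which is 25.0% more signal, and all 8 of 8 alcohol arrays lay above the matching isocaloric mean. C1qb differed by 0.37 (SE 0.10, interval 0.16 to 0.59, adjusted p = 0.0536), or 29.5%, in 7 of 8 arrays. C1qc differed by 0.35 (SE 0.10, interval 0.13 to 0.56, adjusted p = 0.0664). Of the 7 genes 0 were called, where 3.06% of all tested probe sets were. At an unadjusted p under 0.05 were 2 of the 7, and 2065 of the 9520 probe sets. Of 15 tested astrocyte markers 1 was called in this comparison, Aldoc, which rose by 0.36 (SE 0.083, adjusted p = 0.0268). Their median was 0.08 beside -0.02, with 5 at an unadjusted p under 0.05. Among those on the other side were Aqp4 (-0.245) and Slc4a4 (-0.22). The part of astrocyte genes in the C1q differences was not tested.

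The other 5 genes had estimates between -0.13 and 0.03. Csf1r was at 0.00 (95% interval -0.14 to 0.15), Ctss at 0.03 (-0.19 to 0.25) and Aif1 at 0.02 (-0.25 to 0.28). Tyrobp was at -0.13 (-0.46 to 0.21) and Cd74 at -0.00 (-0.42 to 0.42). The intervals of Csf1r, Ctss and Aif1 exclude a difference of 0.32 in either direction, the size estimated for C1qa. That of Tyrobp excludes a rise but not a fall of this size, and that of Cd74 excludes neither. The median over the 7 genes was 0.02, beside -0.02 over all tested probe sets.

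Whether the C1q differences passed depended on the processing. Over 30 alternatives C1qa stayed between 0.31 and 0.39 and was called in 8 (adjusted p 0.00347 to 0.197). C1qb stayed between 0.34 and 0.45 and was called in 10 (adjusted p 0.0106 to 0.231). C1qc ran from 0.24 to 0.46 and was called in 5 of 30. Leaving out either control naive array, which does not enter the difference, kept C1qa at 0.32 and lowered its SE to 0.056 (adjusted p 0.00461 and 0.00476), because those 2 arrays contribute to the shared estimate of spread. Leaving out isocaloric naive replicate 1 raised the adjusted p to 0.197 for C1qa and 0.220 for C1qb, and leaving out replicate 2 to 0.182 and 0.162. The Gapdh 3' to 5' ratio, a sign of RNA quality, was 0.094 to 0.48 (log2) on alcohol and 0.064 to 0.18 on isocaloric arrays. With it in the model C1qa was at 0.35 (adjusted p = 0.154) and C1qb at 0.35 (adjusted p = 0.231). With the Ttr level in the model they were at 0.32 (adjusted p = 0.0644) and 0.34 (adjusted p = 0.0626).

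**Figure D3:**
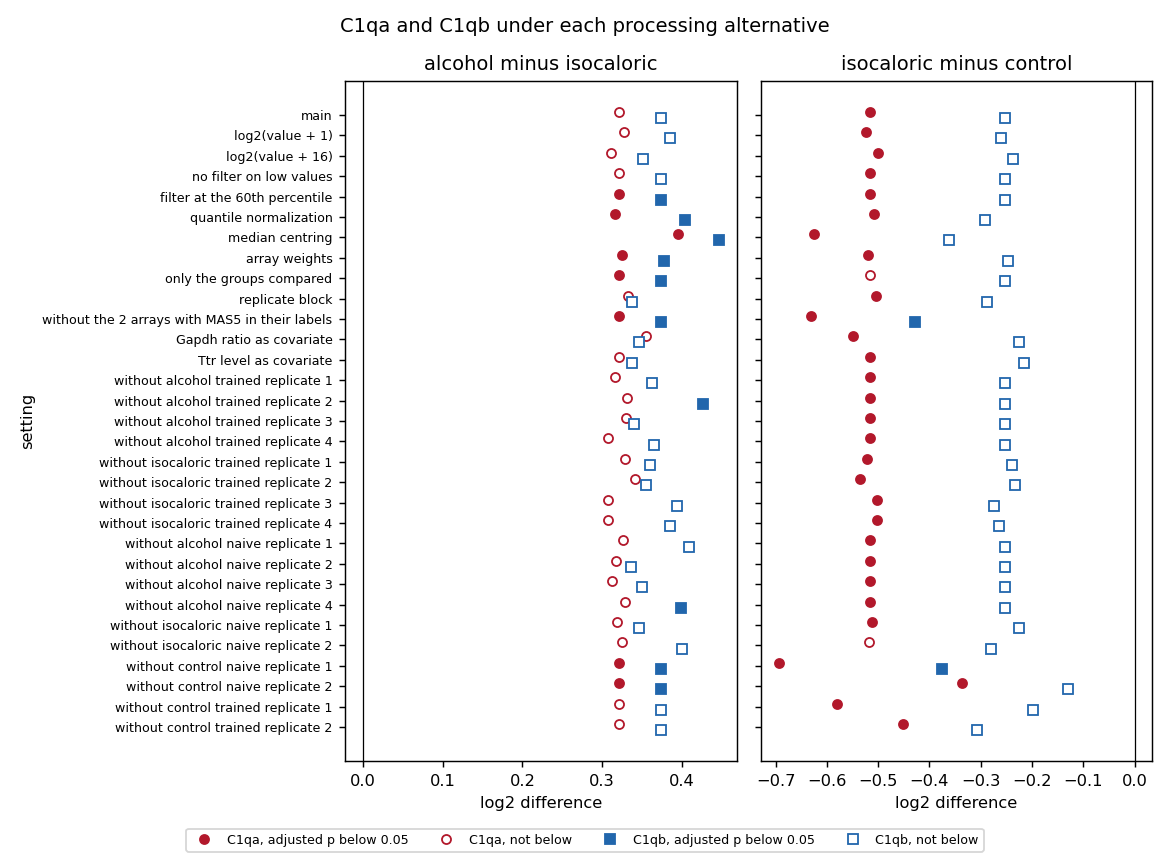
Log2 difference of C1qa (circles) and C1qb (squares) under the main analysis (top line) and 30 alternatives, for alcohol minus isocaloric (left) and isocaloric minus control (right); filled symbols have an adjusted p below 0.05. On the left all points stay between 0.31 and 0.45 while the calls come and go; on the right C1qa runs from -0.69 to -0.34 and is called in all but 2.

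Within trained arrays the alcohol and isocaloric groups did not overlap for C1qa, and the same held within naive arrays. This was the case for 1 of the 7 genes, beside 3.71% of all tested probe sets. In trained arrays C1qa differed by 0.31 (SE 0.11, adjusted p = 0.201) and in naive arrays by 0.33 (SE 0.14, adjusted p = 0.327). C1qb differed by 0.17 (SE 0.13, adjusted p = 0.574) in trained and by 0.57 (SE 0.16, adjusted p = 0.181) in naive arrays, where all 4 alcohol arrays lay above both isocaloric arrays. In naive arrays this separation held for 2 of the 7 genes, C1qa and C1qb, and for 13.7% of all probe sets. Cd74 had opposite signs, at -0.28 (SE 0.25, adjusted p = 0.650) in trained and 0.28 (SE 0.31, adjusted p = 0.764) in naive arrays. Of the 7 genes 0 were called in either state, where 0.399% of probe sets were called in trained and 0.0735% in naive arrays. The difference between the states was itself tested, as the interaction of training with alcohol or isocaloric diet. It was -0.40 for C1qb (95% interval -0.83 to 0.03), -0.02 for C1qa (-0.39 to 0.34) and -0.56 for Cd74 (-1.39 to 0.28), each at an adjusted p of 1.00, and 0 of 7 genes and 0% of probe sets passed in limma, though 401 probe sets had an unadjusted p under 0.05.

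C1qa was lower on the isocaloric than on the control diet. The difference, averaged over the training states, was -0.52 (SE 0.10, 95% interval -0.73 to -0.30, adjusted p = 0.00877), 1.43-fold lower on this scale, in 6 of 6 isocaloric arrays. The states were unlike. The isocaloric and control means were 8.16 and 8.38 in trained arrays, which overlapped, and 7.91 and 8.73 in naive arrays, which did not. All 7 genes had a negative difference, with a median of -0.24 beside 0.02 over all tested probe sets, and 1 of 7 was called beside a background of 7.05%. Part of this leaned on control naive replicate 2. Without that array Ctss was at -0.02, Tyrobp at -0.04 and C1qb at -0.13. For Aif1 (6.53) and Cd74 (7.16) that array instead lay below control naive replicate 1 (6.78 and 7.21). The isocaloric arrays also serve in the comparison with alcohol, so these values and those are not independent.

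The remaining genes did not pass. C1qb was at -0.25 (95% interval -0.51 to 0.00, adjusted p = 0.203), C1qc at -0.23 (-0.48 to 0.03, adjusted p = 0.252) and Ctss at -0.24 (-0.50 to 0.02, adjusted p = 0.238). Aif1 was at -0.24 (-0.56 to 0.08), Cd74 at -0.26 (-0.76 to 0.23) and Tyrobp at -0.23 (-0.63 to 0.17). Csf1r was at -0.02 (-0.20 to 0.15). Ctss and Cd74 were below the control mean in 6 of 6 isocaloric arrays, Tyrobp and Aif1 in 5 of 6 and C1qb in 2 of 6.

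The control arrays behind this call differed from each other. Without control naive replicate 2 the C1qa difference was -0.34 (adjusted p = 0.0368), and without control naive replicate 1 it was -0.69 (adjusted p = 1.11e-05). The call was lost without isocaloric naive replicate 2 (-0.52, adjusted p = 0.0532) and in a fit of only the groups compared (adjusted p = 0.0587). Without the 2 arrays with MAS5 in their notes, which leaves 1 array in each control group, C1qb was at -0.43. Isocaloric and control arrays did not overlap in the same direction in both training states for 0 of the 7 genes, beside 9.61% of all probe sets. In naive arrays C1qa, C1qb and Cd74, 3 of the 7, were wholly lower in isocaloric than in control, as were 21.5% of all probe sets. In trained arrays C1qb, 1 of the 7, was wholly higher, as were 15.7% of all probe sets. With 2 arrays a group such separation is common. The Gapdh 3' to 5' ratio (log2) was 0.19 to 0.36 on control and 0.064 to 0.18 on isocaloric arrays, without overlap. C1qa was called with that ratio in the model, and the part of RNA quality in the difference was not tested.

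Markers of some other cell types were also called between isocaloric and control arrays, where 7.05% of all tested probe sets were called. Of 6 tested endothelial and mural markers, 6 were higher in isocaloric than in control arrays, among them the tight-junction gene Cldn5 at 1.29 (SE 0.090, adjusted p = 7.36e-08). The summed signal of the 15 on the array was 719.5 to 830.1 on control and 1182 to 1386 on all other arrays. Of the 2 tested blood markers, haemoglobin Hbb fell by 0.50 (SE 0.14, adjusted p = 0.0422), and Cd4, named here after its value was seen, was at 0.21 (SE 0.12, adjusted p = 0.289). The summed signal of the 12 blood markers other than haemoglobin was 236 to 287 on control and 232 to 337 on isocaloric arrays, without a gap between the diets. The 6 perivascular macrophage markers, all under the filter on low signal, summed to 142 to 171 on the 2 isocaloric naive arrays. On the isocaloric trained and control arrays they summed to 107 to 131. Of 15 astrocyte markers 1 was called lower, the glutamate transporter Slc1a3 by 0.36 (SE 0.10, adjusted p = 0.0397), and 0 higher, which is close to that 7.05%. The median of the 15 was -0.12, beside 0.02 over all tested probe sets. At an unadjusted p under 0.05 were 5 of the 15, and 2393 of the 9520 probe sets. Of 14 neuron markers 1 fell, Camk2a at -1.61 (SE 0.20, adjusted p = 0.000284), and 1 rose, the GABA-synthesising enzyme Gad2 at 0.50 (SE 0.13, adjusted p = 0.0271). In limma 0 of 11 oligodendrocyte, 0 of 7 choroid plexus and 0 of 7 meningeal markers passed, with 2, 0 and 0 at an unadjusted p under 0.05. The part of these shifts in the C1qa difference was not tested.

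**Figure D4:**
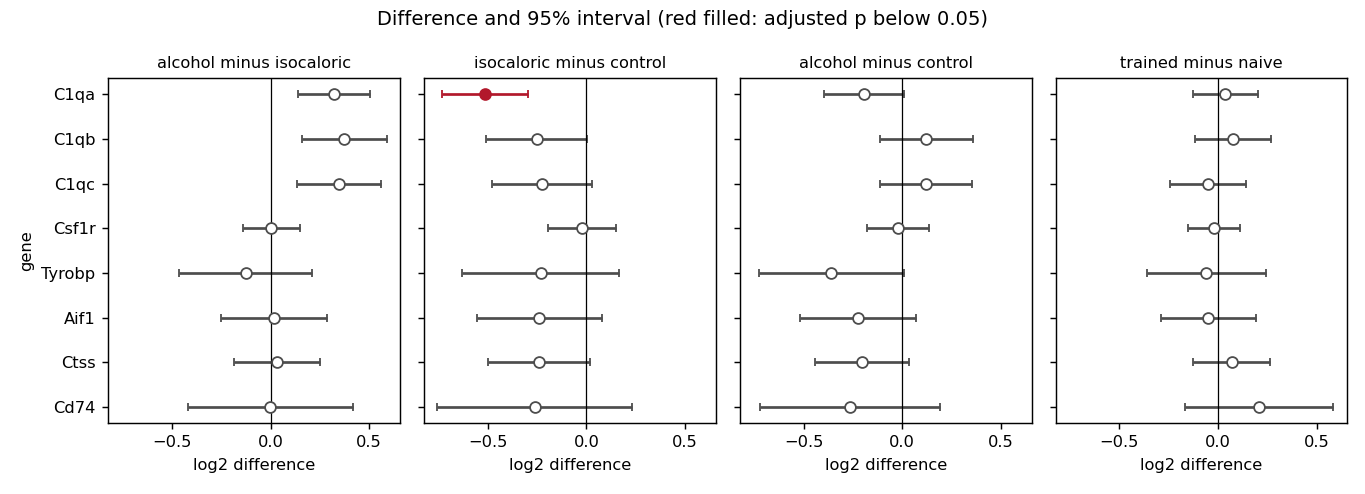
Log2 difference (points) with its 95% interval (bars) for the 7 genes and C1qc in 4 comparisons; the filled point has an adjusted p below 0.05. Only C1qa in isocaloric minus control is filled (-0.52), and the C1q chains lie to the right of 0 in alcohol minus isocaloric.

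Alcohol against control shares both sets of arrays with the comparisons above. C1qa was at -0.19 (SE 0.096, 95% interval -0.39 to 0.01, adjusted p = 0.161), C1qb at 0.12 (-0.11 to 0.36, adjusted p = 0.480) and C1qc at 0.12 (-0.11 to 0.35, adjusted p = 0.480). Tyrobp was at -0.36 (SE 0.18, interval -0.73 to 0.01, adjusted p = 0.158), below the control mean in 7 of 8 arrays. Ctss was at -0.21 (-0.44 to 0.03, adjusted p = 0.216), Aif1 at -0.22 (-0.52 to 0.07, adjusted p = 0.275), Cd74 at -0.26 (-0.72 to 0.19, adjusted p = 0.418) and Csf1r at -0.02 (-0.18 to 0.14, adjusted p = 0.873). Arrays below the matching control mean numbered 8 of 8 for Aif1, 7 for Ctss, 5 for Cd74, 4 for Csf1r and 4 for C1qa. The C1qa mean in alcohol was above control in trained arrays (8.47 and 8.38) and below it in naive arrays (8.25 and 8.73). By limma 0 of the 7 genes were called, where 19.9% of all probe sets were. At an unadjusted p under 0.05 were 0 of the 7, and 3201 of the 9520 probe sets. The median of the 7 genes was -0.21 beside -0.00 over all tested probe sets. Without overlap in both training states there were 0 of 7 genes, beside 8.80% of probe sets. Leaving out either control naive array leaves 1 array in that group. Without control naive replicate 1 C1qa was at -0.37, Ctss at -0.44 and Tyrobp at -0.61, and without control naive replicate 2 C1qa was at -0.02.

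Training was not accompanied by a called difference in any of the 7 genes. Averaged over the diets, Cd74 was at 0.21 (95% interval -0.17 to 0.58, adjusted p = 0.936), C1qb at 0.07 (-0.12 to 0.27), Ctss at 0.07 (-0.13 to 0.26) and C1qa at 0.04 (-0.13 to 0.20). Csf1r was at -0.02 (-0.15 to 0.11), Aif1 at -0.05 (-0.29 to 0.19) and Tyrobp at -0.06 (-0.36 to 0.24). In limma 0 of 7 genes passed, and 0.0105% of all probe sets were called. At an unadjusted p under 0.05 were 0 of the 7, and 566 of the 9520 probe sets. In alcohol arrays C1qa was at 0.22 (SE 0.11, adjusted p = 0.599) and C1qb at 0.16 (SE 0.13, adjusted p = 0.763). In that diet 0 of 7 genes and 0% of probe sets passed in limma, with 818 at an unadjusted p under 0.05.

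The C1q chains had training differences of opposite sign in the isocaloric and control diets. In isocaloric arrays C1qb was at 0.56 (SE 0.16, 95% interval 0.23 to 0.90, adjusted p = 0.456), with all 4 trained arrays above both naive ones, and C1qa at 0.24 (-0.04 to 0.53, adjusted p = 0.752). In control arrays C1qb was at -0.50 (SE 0.18, interval -0.89 to -0.12, adjusted p = 0.309), with both trained arrays below both naive ones, and C1qa at -0.35 (-0.68 to -0.02, adjusted p = 0.423). Such a separation in opposite directions was found for 1 of the 7 genes, C1qb, and for 7.33% of all probe sets. Of the 7 genes 0 were called in either diet, and the background was 0% in isocaloric (678 probe sets at an unadjusted p under 0.05 in limma) and 0.0315% in control arrays.

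The difference between these training effects was tested in comparisons added after the values were seen. Isocaloric minus control gave 1.06 for C1qb (SE 0.24, 95% interval 0.56 to 1.57, adjusted p = 0.0678), 0.60 for C1qa (SE 0.21, adjusted p = 0.211) and 0.58 for C1qc (SE 0.24, adjusted p = 0.295). Alcohol minus control gave 0.66 for C1qb (SE 0.22, adjusted p = 0.221) and 0.57 for C1qa (SE 0.19, adjusted p = 0.216). In both, 0 of 7 genes were called in limma, where 0.179% and 0.0315% of all probe sets were called. At an unadjusted p under 0.05 there were 2 of 7 genes in each, and 1323 and 1245 of the 9520 probe sets. The isocaloric minus control value of C1qb was 0.82 (adjusted p = 0.143) without control naive replicate 2 and 1.31 (adjusted p = 0.00603) without control naive replicate 1. That of C1qa was 0.24 (adjusted p = 0.519) and 0.95 (adjusted p = 0.00182) without the same arrays, so each rests on which control naive array is kept.

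The wider lists were chosen for comparison and are described by counts. Of 46 complement genes 29 were on the array and 9 tested. In alcohol against isocaloric 2 of the 9 were called, where 3.06% of all probe sets were, and both fell: properdin (Cfp), a stabiliser of the alternative pathway convertase, by 0.51 (SE 0.11, adjusted p = 0.0177) and Sez6l2, a neuronal complement regulator, by 0.52 (SE 0.11, adjusted p = 0.0218), with 0 rising. The median of the 9 was 0.06, beside -0.02 over all probe sets. C3, the central component, was at 0.17 (SE 0.11, adjusted p = 0.376), so the called complement genes and the C1q chains had opposite signs. In alcohol against control 0 of 9 passed in limma (1 at an unadjusted p under 0.05), and in isocaloric against control 0 (2 at an unadjusted p under 0.05). Of the 9520 probe sets, 3201 and 2393 had such an unadjusted p in these 2 comparisons.

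Of 61 genes of microglia and CSF1 receptor signalling 49 were on the array and 33 tested. In alcohol against isocaloric 0 passed in limma and the list's median was -0.02, beside -0.02 over all probe sets. At an unadjusted p under 0.05 were 9 of the 33, and 2065 of the 9520 probe sets. In alcohol against control 5 of the 33 were called, where 19.9% of all probe sets were. Of these 3 fell, the tetraspanin Cd53 by 0.53 (SE 0.11, adjusted p = 0.00331), the actin-bundling Lcp1 by 0.32 (SE 0.11, adjusted p = 0.0474) and the lysosomal membrane protein Laptm5 by 0.22 (SE 0.077, adjusted p = 0.0478). In the same comparison 2 rose, the neuronal chemokine Cx3cl1 by 0.38 (SE 0.089, adjusted p = 0.00808) and progranulin (Grn) by 0.26 (SE 0.090, adjusted p = 0.0461). In isocaloric against control 0 of 33 passed (5 at an unadjusted p under 0.05, beside 2393 of the 9520 probe sets). Cd53, Lcp1 and Laptm5 are shared with blood leukocytes. In alcohol against control Hbb fell by 0.56 (SE 0.13, adjusted p = 0.00813), Cd4 was at 0.11 (adjusted p = 0.535), and 5 of 6 endothelial and mural markers rose, Cldn5 by 1.39 (SE 0.083, adjusted p = 9.90e-09). The summed signal of the blood markers without haemoglobin was 203 to 308 on alcohol and 236 to 287 on control arrays, and the part of these shifts in the called genes was not tested. Cx3cr1, the microglial receptor of Cx3cl1, was at 0.11 in alcohol against isocaloric and 0.10 against control (adjusted p = 0.642 and 0.673), and P2ry12 at -0.09 and -0.30 (adjusted p = 0.689 and 0.0966). Csf1, a ligand of Csf1r, was at 0.12 (adjusted p = 0.513) in alcohol against isocaloric.

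Around Cd74, 25 of 32 genes of antigen presentation were on the array and 15 tested. Of the 15, 1 was called in alcohol against isocaloric, 2 in alcohol against control and 1 in isocaloric against control, beside 3.06%, 19.9% and 7.05% of all probe sets. Mif, a cytokine that binds Cd74, rose with alcohol by 0.22 against isocaloric (SE 0.049, adjusted p = 0.0225) and by 0.16 against control (SE 0.054, adjusted p = 0.0418). The class I gene RT1-S3 rose by 0.35 against control (SE 0.11, adjusted p = 0.0395). The immunoproteasome subunit Psmb10 fell by 0.42 in isocaloric against control (SE 0.11, adjusted p = 0.0313). The class II chain RT1-Da was at -0.07, -0.54 and -0.46 in alcohol against isocaloric, alcohol against control and isocaloric against control (adjusted p = 0.881, 0.0961 and 0.237), while RT1-Ba, RT1-Db1 and RT1-Bb lay under the filter. Of 27 inflammatory mediators on the array 8 were tested, of which 2 were called in alcohol against control, beside 19.9% of all probe sets. In alcohol against control the NF-kB inhibitor Nfkbia rose by 0.76 (SE 0.13, adjusted p = 0.00115) and the adhesion molecule Vcam1 fell by 0.37 (SE 0.099, adjusted p = 0.0149). In alcohol against isocaloric and in isocaloric against control 0 passed. At an unadjusted p under 0.05 were 2 and 3 of the 8, and 2065 and 2393 of the 9520 probe sets. Averaged over the diets, 0 tested genes on these 4 lists passed for training in limma. At an unadjusted p under 0.05 were 2 microglial genes and 1 inflammatory gene, and 566 of the 9520 probe sets.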

How the data were processed

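Hippocampal RNA of 18 samples was measured on 1 Affymetrix array each. The deposited table holds an unlogged intensity for each probe set in every sample. The trimmed mean was 150.03 on every array, so the authors scaled the arrays to one level. MAS5 is named for 2 samples in the submitters' processing notes, with no version, and for the others no algorithm is given in the sources used here. Total signal per array was 2.92e+06 to 3.13e+06, and the number of arrays limits the precision.

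Deposited intensity was converted to log2(value + 6.06), where 6.06 is the 10th percentile of the intensities, which understates fold changes of dim probe sets. Affymetrix controls (57) and probe sets with a mean level below 5.78 (the 40th percentile) were removed, leaving 9520. Symbols came from the platform annotation (12789 probe sets with 1 symbol, 312 with several and 2822 with none), and 12754 matched RefSeq by gene ID. limma 3.58.1 (R 4.3.3) was fitted to the 6 group means with lmFit and eBayes with a trend. Tests were two-sided, with Benjamini-Hochberg adjustment over all tested probe sets within a comparison and a threshold of 0.05. Diet differences average trained and naive arrays equally, and training differences average the diets. A count such as 8 of 8 gives the arrays of the first-named group on that side of the matching group's mean. The fit was tested on simulated data. Permutation tests of correlations used 100000 resamples (scipy 1.17.1). Python 3.11.15, pandas 2.3.3, numpy 2.4.6 and matplotlib 3.10.9 handled tables and plots.

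Members and lists were chosen with earlier results of these data known. Genes outside the members were named where a list member passed the threshold (at most 6 per list and comparison), as a chosen tissue or pathway marker, or as 1 of the 5 nearest patterns. The alternatives were other added constants (1 and 16), filters, normalisations, array weights, only the groups compared, a replicate block, covariates and leaving out arrays. Whether the replicate numbers pair the samples was not settled. Of 36 same-numbered pairs 4 had deviations from the group mean correlated over 0.1 (range -0.23 to 0.13). Differently numbered pairs were not set beside them, so these values cannot decide it. In the smallest groups the deviations of both arrays mirror each other, so some of the 36 values repeat. The training interactions with the control diet were added after values were seen.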

Additional observations from a re-analysis of the deposited data

Results flagged for a closer look

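The training effect on C1qb differed in sign between the isocaloric and control diets, with trained and naive arrays lying wholly apart in each diet and in opposite directions. The difference between the 2 effects was 1.06 on the log2 scale (isocaloric minus control), and limma's test of it did not pass (adjusted p = 0.0678). The same opposite separation was found for 7.33% of all probe sets. For a single array far from its group, the 8 probe sets were examined in the 3 groups of 4 arrays, 24 cases in all, and 0 were singled out, where chance gives about 1 in 20. The groups of 2 arrays were not examined in this way, and these include control naive, whose replicate 2 held the highest value of 4 of the 7 genes.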

How the results depend on the processing

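Of 2489 member values recomputed under an alternative, 2312 kept their direction and their side of the threshold, 130 uncalled ones changed sign, 45 became called, 2 lost their call and 0 called ones reversed. In alcohol against isocaloric the count of called members went from 0 to 2 (C1qa and C1qb) with the 60th-percentile filter, quantile normalisation, median centring, array weights, only the groups compared, or without the 2 arrays with MAS5 named, and ran from 0 to 2 when single arrays were left out (2 without either control naive array, 1 without alcohol trained replicate 2 or alcohol naive replicate 4). In alcohol against control it went from 0 to 3 without the MAS5 arrays and ran from 0 to 3 (3 without control naive replicate 1). In isocaloric against control it went from 1 to 0 with only the groups compared and to 3 without the MAS5 arrays, and ran from 0 to 3 (0 without isocaloric naive replicate 2, 3 without control naive replicate 1). Array weights gave 1 for training in isocaloric arrays and 2 for alcohol against isocaloric in naive arrays. Without the MAS5 arrays training in control arrays gave 1 (0 to 2 with single arrays out; 2 without control naive replicate 1) and alcohol against isocaloric in trained arrays 1 (0 to 1; 1 without either control naive array). With the replicate block the C1qa and C1qb differences between alcohol and isocaloric were 0.33 and 0.34 (adjusted p = 0.0593 and 0.0922) and C1qa in isocaloric against control was -0.50 (adjusted p = 0.0194), and the block changed no call of a member. The causes were not tested. A control group left with 1 array is assumed to vary like the other groups, so a higher count there does not show a larger effect. The share of all probe sets called was counted for the main analysis only. The member counts under the alternatives therefore have no background beside them. Tyrobp and Aif1 were near the filter on low signal, where the added constant understates changes. In alcohol against isocaloric the intervals of Cd74 and Tyrobp hold a difference of 0.32 in at least 1 direction, and in isocaloric against control those of Cd74, Tyrobp and Aif1 hold the C1qa difference of -0.52.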
